A study of Drosophila melanogaster with 4 samples.

Results

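The regions described here are the HP1a-enriched clusters of the euchromatic part of chromosome arm 3R in Drosophila melanogaster. They are the clusters of the series list that lie on 3R between 2000001 and 27705053, which leaves out the 2 Mb nearest the centromere and the 200 kb at the distal tip. The rule uses position alone. It takes 308 of the 361 clusters on 3R and of the 3891 in the whole list, from a window of 25.7 Mb. HP1a chromatin was immunoprecipitated with the antibody wa191 and sequenced (ChIP-seq), from nuclei of wild-type Oregon-R larvae of the third instar. There were 2 ChIP libraries and 2 input libraries, with no other genotype, treatment or stage, and the labels give no age in days. Larvae were collected from bottles and homogenised, so the nuclei come from many tissues and a value is an average over them. The labels do not say whether the replicates came from separate collections, and their spread may be technical alone.

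HP1a is a structural protein of heterochromatin that binds methylated histone H3 through its chromodomain and recruits other silencing proteins. Most of it sits in the repeat-rich sequence around the centromeres and on chromosome 4. It is also found at scattered sites along the euchromatic arms, where repeats and some expressed genes carry it. The clusters of 3R are sites of this scattered kind by position. Genes and sequences under them are not given, because no annotation or genome of FlyBase release 5, the build of the files, was used here.

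Each of the 3 lists, the series list and 1 for each replicate, gives a start, an end and 1 value per cluster. The values are the authors' own and are read as log2 enrichment of ChIP over input, so that a value of 1 is a 2-fold enrichment. The number of reads behind a cluster or a library is unknown, and no interval for counting error can be given. The precision of a value is judged by the 2 replicates.

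HP1a clusters on euchromatic 3R were short, weak and sparse. Replicate 1 had 171 clusters in the window and replicate 2 had 164. That was 6.52 ± 0.19 clusters per Mb (SD, n = 2), over 1.36% ± 0.05 of the window. The median width was 1992 bp in replicate 1 and 1967 bp in replicate 2. Widths were closely packed, with 64.9% and 57.3% of the clusters from 1800 to under 2400 bp. The median value was 0.62 (1.53-fold) in replicate 1 and 0.56 (1.47-fold) in replicate 2. A value of 1 or more was reached by 26 clusters of replicate 1 and 28 of replicate 2. The highest values were 2.41 and 2.27. The series list had 308 clusters over 609 kb, 2.37% of the window, and its clusters had medians of 1923 bp in width and 0.42 in value.

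The members fall into 4 kinds by the replicate clusters that they overlap by at least 1 bp. Both replicates had a cluster at 128 members, or 41.6% (95% Wilson interval 36.2% to 47.1%, which treats clusters as independent). In the whole series list 52.1% of clusters overlapped both replicates, and in the like windows of the 5 major arms together 42% did. The share on 3R is thus near that of the 5 windows pooled, which include 3R, but the arms varied. It was 42.1% on 3L, 47.3% on 2L, 50.2% on 2R and 36.6% on X. Replicate 1 alone had a cluster at 41 members and replicate 2 alone at 35. The other 104 members, 33.8%, overlapped neither, against 28.2% of the whole list and 35% of the 5 arm windows. No replicate cluster in the window lay outside the members. The series list comes from the same libraries, so its overlap with them is not independent support for a site.

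The kinds differed in width and value. Members found in both replicates had medians of 2144 bp in width and 0.54 in series value, and they held 53.2% of the members' length. Those in replicate 1 alone had 1885 bp and 0.31, and those in replicate 2 alone 1859 bp and 0.38. Those in neither had 1301 bp and 0.38. The series list goes down to narrower clusters, with 1001 bp as its narrowest width on any sequence against 1301 bp in the replicate lists. Of the 104 members in neither, 52 were narrower than any cluster of the replicate lists.

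Support for a member differed most between widths below and above 1800 bp. Of the 57 members narrower than 1301 bp none was found in both replicates, and of the 70 from there to under 1800 bp 3 were. Of the 140 from 1800 to under 2400 bp 90 were found in both (64.3%), of the 20 from 2400 to under 3000 bp 17, and of the 21 of 3000 bp or more 18. A wide cluster reaches an overlap of 1 bp more easily than a narrow one, and how far that sets these shares was not tested. When an overlap of 50% of the shorter cluster was asked for, the share of members in both replicates was again 41.6%. Members that pass this cut are a part of those that pass at 1 bp. An equal share thus means the same members, and the counts found in both were unchanged in every width class. The cut could change little, since replicate clusters covered a median of 96.4% (replicate 1) and 93.9% (replicate 2) of the members in both.

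**Figure D1:**
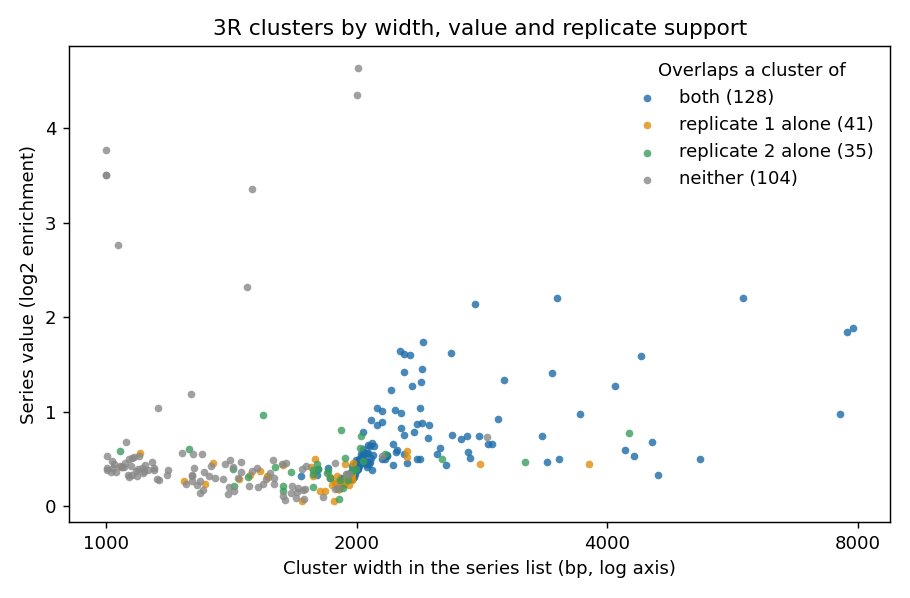
Width in the series list (bp, log axis) against series value (log2 enrichment) for the 308 clusters, coloured by the replicates that they overlap. Clusters in both replicates lie mostly above 1800 bp with values that rise with width, and 8 clusters in neither replicate, none wider than 2007 bp, stand above a value of 2.

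The 3 widest members were nearly as wide as each other and were present in both replicates. The widest ran from 3521660 to 3529560 (7901 bp), with a value of 1.80 (3.47-fold) in replicate 1 and 1.96 (3.90-fold) in replicate 2. Its replicate clusters covered 99.9% and 96.9% of it. The second, near the distal end from 26899742 to 26907516 (7775 bp), had 1.75 and 1.94, or 3.35-fold and 3.85-fold. In both of these the replicates agreed to 0.2 on the log2 scale. The member from 21220360 to 21227968 (7609 bp) was weaker, with 1.24 in replicate 1 and 1.05 in replicate 2.

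The next members in width were less alike. The one from 4732994 to 4738816 (5823 bp) was among the strongest members found in both, with 2.41 (5.32-fold) in replicate 1 and 2.17 (4.50-fold) in replicate 2. Its replicate clusters covered only 44.6% and 58.6% of it. With 1 value per cluster, where in the member the signal was strong is not known. The one from 11031384 to 11035778 (4395 bp) had 1.64 and 1.60, and its edges agreed between the replicates to 1 bp at the start and 4 bp at the end. The members from 7781360 to 7786524 (0.67 and 0.46) and from 13707252 to 13711784 (0.97 and 0.77) stayed under 2-fold in both replicates. By the cluster sharing most bases, so did those from 14022448 to 14027050 (0.34 and 0.25) and from 25597048 to 25601356 (0.71 and 0.54). The member from 14022448 overlapped 2 clusters of replicate 1, and that from 25597048 overlapped 2 of each replicate. Values of their further clusters are not given here. The tenth in width, from 3555226 to 3559474, was found in replicate 2 alone, with a value of 1.02 there. The nearest cluster of replicate 1 lay 631 bp away.

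Wide members did not dominate the arm. The 10 widest held 11.6% of the covered bases of replicate 1 and 11.7% of those of replicate 2. The widest member in each 5 Mb stretch, from the centromere end outward, was 7901, 5165, 4603, 7609 and 7775 bp wide, and 2383 bp in the last 0.705 Mb. The last of these ran from 27537968 to 27540350, with 1.17 in replicate 1 and 0.96 in replicate 2.

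Values as high as those of the widest member were also found at members outside the 10 widest. The member from 2905312 to 2908792 (3481 bp) had 2.16 (4.48-fold) in replicate 1 and 2.27 (4.83-fold) in replicate 2. The member from 8537062 to 8539838 (2777 bp) had 2.17 and 2.15, or 4.50-fold and 4.45-fold. These and the member from 4732994 are the 3 found in both replicates with a series value of 2 or more. Of the 128 members in both, 22 had a value of at least 1 in each replicate and 6 in 1 of them. Across the 128, wider members had higher series values (Spearman correlation 0.742, a description over clusters of the same libraries). The 18 of 3000 bp or more had median values of 1.12 in replicate 1 and 1.06 in replicate 2, and the 110 narrower ones 0.63 and 0.54.

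The highest values of the series list lay where neither replicate had a cluster. Of the 10 highest, 8 overlapped neither, and they were the first 8 in rank. The first ran from 3533288 to 3535294 with a value of 4.64, 3731 bp from the nearest cluster of replicate 1 and 3777 bp from that of replicate 2, next to the widest member. The others were from 26148484 to 26150484 (4.36), 27109428 to 27110428 (3.77), 18277358 to 18278358 (3.51), 26505298 to 26506298 (3.51), 15570016 to 15571512 (3.36), 16339104 to 16340136 (2.77) and 5108248 to 5109724 (2.32). These 7 lay at least 44.5 kb and up to 409 kb from a cluster of either replicate. The 8 had a median width of 1255 bp, and 3 of them were exactly 1001 bp wide. None was wider than 2007 bp.

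These 8 values were also of a particular form. In the series list the most common value is 2.19, held by 38 clusters. Each of the 8 differed from it by the log2 of a ratio of whole numbers up to 20, within a relative tolerance of 1e-06. The ratios were 11 to 2, 9 to 2, 3 to 1, 5 to 2 (at 2 members), 9 to 4, 3 to 2 and 11 to 10. With whole numbers up to 10, the limit used elsewhere here, 6 of the 8 had such a ratio. Over all 308 members, 18 had one with the limit of 20 and 13 with the limit of 10. Of the 128 members in both replicates 3 had a value on a ratio up to 20, and of the 76 in 1 replicate alone 6 had. The form was thus not confined to the 8 high values. Of the 10 in neither with a value of 1 or more 9 had it, and of the 94 in neither with a value under 1 none had. Ratios of small whole numbers are the values that small read counts can give. The files hold no read counts, so the part of low counts in these values was not tested. In the windows of the other 4 arms, 25 of the 39 clusters with a value of 2 or more overlapped neither replicate, against 8 of 11 on 3R. Of these, 18 of the 25 had a value on a ratio of whole numbers up to 10, against 6 of the 8 on 3R.

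Among all members 33 had a series value of 1 or more, or 10.7%, against 50.6% in the whole list and 11.9% in the 5 arm windows. Of the 33, 23 were found in both replicates, 10 in neither and none in 1 alone.

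The replicates placed the same sites at nearly the same bases. In the window, 129 of the 171 clusters of replicate 1 (75.4%) overlapped a cluster of replicate 2, and 129 of the 164 of replicate 2 (78.7%) overlapped one of replicate 1. The 42 of replicate 1 without a partner had medians of 0.53 in value and 1731 bp in width, and the paired ones 0.67 and 2042 bp. For replicate 2 the 35 without a partner had 0.52 and 1693 bp, and the paired ones 0.56 and 1997 bp. At 126 of the 128 members in both, each replicate had exactly 1 cluster, and the pair overlapped directly at all 126. Their starts differed by a median of 45.5 bp and their ends by 58.5 bp. The largest shifts were 1842 bp at a start and 2198 bp at an end.

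The values of the pairs ranked alike but were more often higher in replicate 1. The median over the 128 members was 0.67 in replicate 1 and 0.56 in replicate 2, and replicate 1 was the higher at 86 members. At those with a series value of 1 or more, each replicate was the higher about as often as the other. The median absolute difference was 0.12 on the log2 scale, with quartiles of 0.05 and 0.19. Across the pairs Pearson's r was 0.938 and the Spearman correlation 0.870, over clusters that share their libraries. The series value lay between those of the replicates at 73 members and below both at 55, and above both at none. It was 0.04 below their mean at the median.

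**Figure D2:**
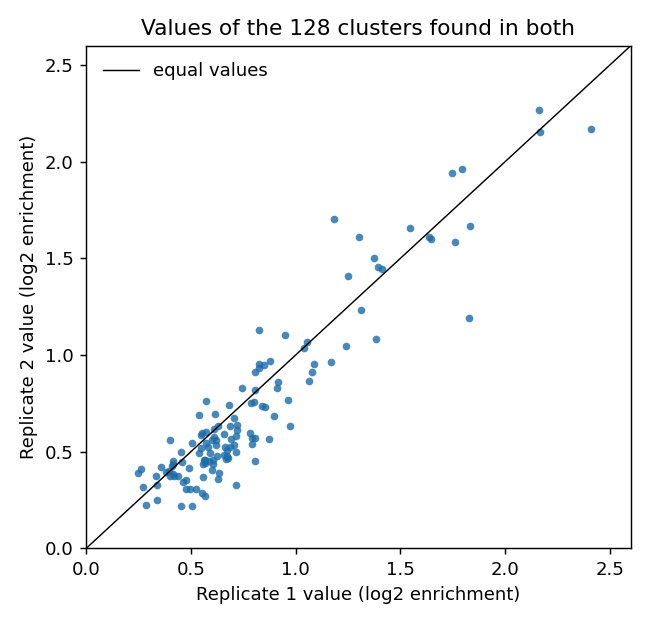
Value of the replicate 1 cluster against that of the replicate 2 cluster (both log2 enrichment) for the 128 clusters found in both, with a line of equal values. Most points lie within 0.2 of the line, 86 of them on the replicate 1 side.

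Only 2 pairs differed by more than 0.5, and they were neighbours at the centromere end of the window. From 2000676 to 2004758 the value was 1.18 in replicate 1 and 1.70 in replicate 2. From 2005554 to 2008148 it was 1.83 in replicate 1 and 1.19 in replicate 2, the opposite order. At the first of them the cluster of replicate 1 was 1769 bp wide and that of replicate 2 3802 bp. The third largest difference, from 13364938 to 13366966, was between 0.72 in replicate 1 and 0.33 in replicate 2. The first of these members is also the one just inside the limit of 2 Mb. The nearest series cluster outside ran from 1653988 to 1655784 with a value of 0.40. At the distal limit the last member ran from 27549954 to 27551042 with 0.32, and the nearest cluster beyond it from 27807546 to 27808546 with 1.09. No cluster of any list crossed either limit.

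Along the arm the clusters were sparser toward the tip in both replicates, a description with no test. The first 5 Mb of the window, from 2000001, had 7.8 clusters per Mb in replicate 1 and 8.2 in replicate 2. The next stretches had 7.8 and 8.4, then 7.2 and 6.2, then 5.8 and 5.0, and the stretch to 27000000 had 5.2 and 4.6. Cover was 1.73% and 1.87% in the first stretch and 1.14% and 1.03% in the stretch to 27000000. On the centromere side of its midpoint the window held 101 clusters in each replicate, and on the distal side 70 in replicate 1 and 63 in replicate 2. Members found in both were 31, 30, 26, 20 and 19 in the 5 stretches. The median value followed no such order, with 0.66, 0.63, 0.60, 0.60 and 0.64 in replicate 1 and 0.63, 0.57, 0.44, 0.55 and 0.50 in replicate 2.

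Other arms were also sparser toward the tip, with 3L as the exception. The innermost and outermost 5 Mb of the 3R window had 7.8 and 5.0 clusters per Mb in replicate 1 and 8.2 and 4.4 in replicate 2. On X these were 24.2 and 11.6, and 26.4 and 11.0. On 3L they were 8.4 and 9.0 in replicate 1 and 8.4 and 7.2 in replicate 2, so the replicates went opposite ways. On 2L they were 9.2 and 8.2, and 8.6 and 6.8, and on 2R 14.4 and 12.4, and 13.0 and 11.8.

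**Figure D3:**
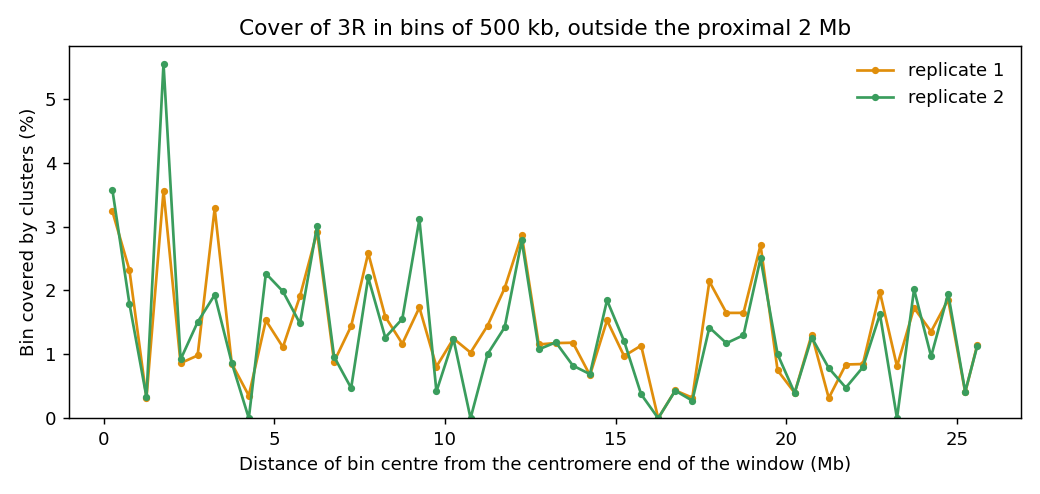
Share of each bin of 500 kb under clusters (%) in replicates 1 and 2, against the distance of the bin's centre from the centromere end of the window (Mb). Both lines peak at the bin with 3.56% and 5.55% cover, and the line of replicate 1 touches 0 at 1 bin and that of replicate 2 at 4, the same bin among them.

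No bin of 500 kb was densely covered. The median bin was covered over 1.18% in both replicates, and 2 of the 52 bins reached 3% in both. The highest was 3500001 to 4000000, with 3.56% in replicate 1 and 5.55% in replicate 2. It had 6 clusters in replicate 1 and 12 in replicate 2. The excess of replicate 2 came from 6 members between 3555226 and 3923844 that were found in replicate 2 alone, with values there from 0.47 to 1.42. The strongest of these ran from 3873222 to 3874766. At 3 of the 6, this one included, the series value was on a ratio of whole numbers up to 10 to the most common value of the list. That was so at 4 of all 35 members in replicate 2 alone and at 13 of all 308 members. It is the form of the high values above, at the lower limit of 10. The next bins were 2000001 to 2500000 (3.24% and 3.58%) and 8000001 to 8500000 (2.91% and 3.01%), where the replicates were close and had 7 clusters each. Across bins the Spearman correlation of the cover was 0.847.

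Gaps were long. The median gap between neighbouring members was 36.4 kb, with quartiles of 11.2 and 122 kb, and 40 of the 307 gaps were over 200 kb. In the replicate lists the median gap was 86.8 kb in replicate 1 and 74.8 kb in replicate 2. The series list had medians of 36.4 kb on 2L and 37.8 kb on 3L, close to 3R, and 25.9 kb on 2R and 11.5 kb on X. The longest stretch without a cluster in any list was 599.7 kb long, from 18278359 to 18878089. The bin from 18000001 to 18500000, in which it starts, was the only 1 with no cluster in either replicate. Its single member, from 18277358 to 18278358, is one of the 8 high values found in neither. The next longest stretches ran from 25030623 to 25516051 and from 22056885 to 22542141, each 485 kb. A further 3 bins had no cover in replicate 2 alone.

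Members also came in small groups. With gaps of at most 20 kb between neighbours there were 11 groups of 4 or more, holding 47 members, and 10 of the 11 lay on the centromere side of the window's midpoint, which holds 182 of the 308 members. The largest had 6 members over 77.8 kb, from 13993430 to 14071226, of which 3 were found in both replicates, with series values from 0.33 to 0.98. The group from 2905312 to 2962324 had 5 members, 3 of them in both, led by the strong member at its start (2.20). The group from 3521660 to 3562492 held the widest member and the highest value side by side. The tightest, from 9215030 to 9221584, put 4 members into 6.56 kb with values from 0.45 to 0.50, and none of them was found in both replicates. The groups from 10687994 to 10703140 and from 17430618 to 17459874 also had no member in both. The second of these holds the widest member found in neither replicate, from 17434602 to 17437468 (2867 bp, 0.73). The other groups started at 5051696, 5219490, 5358272, 9787196 and 13460240, with 4 members each and a highest value of 0.56.

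In the same kind of window, without the proximal 2 Mb and the distal 200 kb, 3R had the fewest clusters for its length. It had 6.65 per Mb in replicate 1 and 6.38 in replicate 2. The window of 3L had 7.56 and 7.16, 2L 8.65 and 8.07, 2R 10.7 and 9.87 and X 17.6 and 18.5. Cover came in the same order, from 1.40% and 1.33% on 3R and 1.64% and 1.55% on 3L to 4.62% and 4.72% on X. The gap between 3R and 3L in clusters per Mb was 0.91 in replicate 1 and 0.78 in replicate 2. The SD of the replicates was 0.19 on 3R and 0.28 on 3L (n = 2), which does not measure the error of a difference between arms. The smallest two-sided p of an exact permutation test over 2 pairs of values is 0.5, so the arms were not tested against each other and none is called different. The order depended on the clusters counted. At or above the median value of the whole list, 3R had 6 clusters in replicate 1 and 5 in replicate 2, and 3L had 2 in each, fewer for its length.

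**Figure D4:**
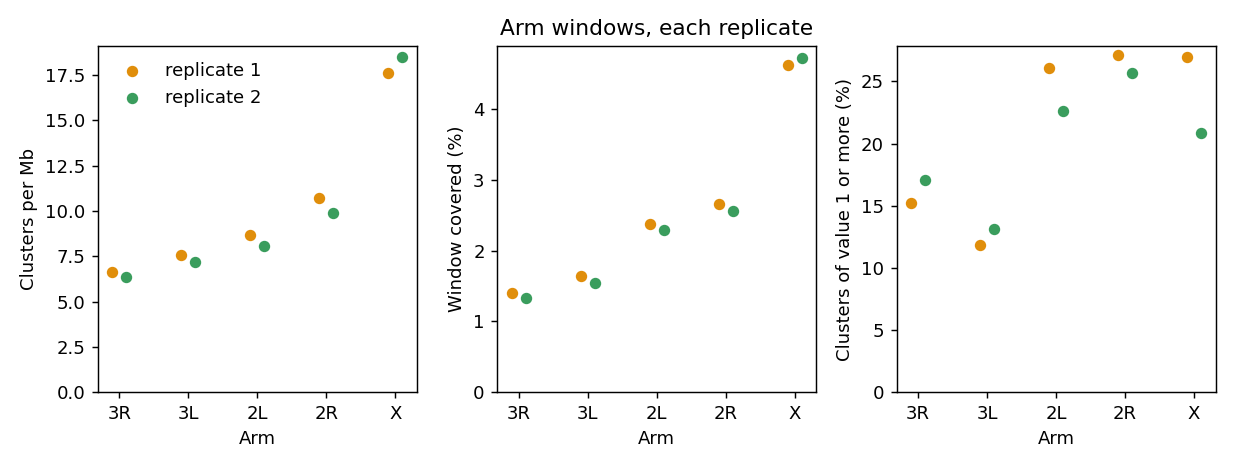
Clusters per Mb, covered share of the window (%) and share of clusters with a value of 1 or more (%) for the 5 arm windows, 1 point for each replicate. 3R is lowest in the first 2 panels, and 3L in the last.

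Values on 3R were close to those on 3L and lower than those on the other arms in both replicates. The median value was 0.62 and 0.56 on 3R and 0.63 and 0.54 on 3L, which differ by less than the replicates do, against 0.69 and 0.65 on 2L, 0.66 and 0.65 on 2R and 0.80 and 0.76 on X. Clusters with a value of 1 or more made up 15.2% and 17.1% on 3R, 11.8% and 13.1% on 3L, 26.1% and 22.6% on 2L, 27.1% and 25.7% on 2R and 27.0% and 20.9% on X. Median widths were close on all arms. As means of the 2 replicates they were 1979.5 bp on 3R, 1975 bp on 3L, 2015.5 bp on 2R, 2054 bp on 2L and 2046.5 bp on X. The widest clusters of the arms were unlike. The widest of the series list was 7901 bp on 3R and 9593 bp on 3L, against 21903 bp on 2R, 23087 bp on X and 31509 bp on 2L. The upper quartile of width on 3R was 2164 bp in replicate 1 and 2124 bp in replicate 2, the lowest of the 5 windows in both replicates. The share of members found in neither replicate was 33.8% on 3R, 34.8% on 3L, 29.6% on 2L, 29.8% on 2R and 40.0% on X.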

How the data were processed

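HP1a ChIP-seq was done on 2 ChIP libraries, with 2 inputs, of Oregon-R larvae. Per the labels, each input served as background for the ChIP of the same number, and the inputs entered only through the lists. The aligner was Bowtie 0.12.7, as the submitters' processing notes name it. For the caller, its threshold and the making of the series list, the entry is: not given in the sources used here. Each cluster of the 3 deposited lists carries 1 value. The deposited values are read as log2 enrichment, since no header names a unit and values that recur are apart by log2 of ratios of small integers. Coordinates are on FlyBase release 5, per the file headers, and count from 1. No gene is named, since the one gene table at hand was on Release 6 and builds were kept apart.

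A cluster belonged to the window if it lay wholly inside. Cover merges overlapping clusters. A member's replicate value is that of the cluster sharing most bases with it. Overlap and cover were checked on simulated lists. Named regions follow a rule by width, value, position and replicate difference. The rule also takes groups and free stretches. The members found in replicate 2 alone in the bin with the most cover, the 3 in both with a series value of 2 or more, and the form of the 8 high values were singled out after their values were seen. Members, lists and settings were chosen with earlier results of these data known. Depth per library is unknown. The software was pandas 2.3.3, numpy 2.4.6, scipy 1.17.1 and, for plots, matplotlib 3.10.9, under Python 3.11.15. Alternatives were a median cut on value, a window without 5 Mb, a 50% overlap, joining within 1 kb, a minimum width, the series list and each replicate left out.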

Additional observations from a re-analysis of the deposited data

How the results depend on the processing

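Of 51 alternative values, 31 kept within the replicate spread (counts within 1.5 times, shares within the Wilson interval, the value difference within 10%), of which 14 leave out a replicate and could not do otherwise. A cut at the median value of the whole list moved most: 29 members, 13.8% of them in both replicates, 0.21 clusters per Mb, 0.0896% cover, a median value of 2.08, a median width of 2994 bp, a replicate overlap of 73.3%, a value difference of 0.14 and 94.0% of the cover in the 10 widest members left. The density of the sparsest other arm minus that of 3R, 0.85 per Mb, was then -0.12, since 3L fell below 3R. The cut lay at 1.79 in both replicate lists and at 1.04 in the series list. Without the proximal 5 Mb there were 6.21 clusters per Mb, 1.27% cover, 12.7% of the cover in the 10 widest and a gap to the next arm of 1.21 per Mb. In the series list there were 11.98 per Mb, 2.37% cover, a median value of 0.42, a median width of 1923 bp and a gap of 1.33 per Mb. With series clusters no narrower than 1301 bp, 51.0% of members were in both replicates. Without either replicate the density was 6.38 and 6.65 per Mb and the gap 0.78 and 0.91. Leaving out values on small ratios and the arm comparison's settings were chosen after seeing the data. No paired analysis was possible because the inputs have no lists of their own and no test was run. Unknown read depth limits every value.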

Other observations

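All 308 clusters of euchromatic 3R in the series list start at an even coordinate, as do all 3891 clusters of that list. In the replicate lists 86 of 171 and 88 of 164 clusters of the same window do.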
